A study of Arabidopsis thaliana with 18 samples.

Results

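AS1, AS2, WOX1, WOX3 (also named PRS) and JAG are transcription factor genes of leaf blade outgrowth, and they were read from a table of 33602 loci by their locus identifiers: AT2G37630, AT1G65620, AT3G18010, AT2G28610 and AT1G68480. All 5 genes were in the table. RNA was sequenced from leaf 5 of Arabidopsis thaliana, cut into a margin and a center piece, in 18 libraries that form 6 groups of 3. The genotypes were the quadruple mutant tcp2 tcp3 tcp4 tcp10 (4KO), the double mutant tcp2 tcp4 (2KO) and the wild type Col-0, each with margin and center libraries. Growth was at 23 °C under 16 h of light, leaf 5 was taken when leaf 7 emerged at Zeitgeber time 6, and each library pooled the pieces of 15 to 20 plants. The plates of 1 genotype after another went to the greenhouse 2 days apart, 4KO first and Col-0 last, so that the leaves could be taken at 1 stage. Genotype and plant age can therefore not be told apart.

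The mutated genes encode CIN-class TCP factors, which microRNA miR319 targets and which are known to stop cell division as the leaf matures. AS1 encodes a MYB-domain protein and AS2 a LOB-domain protein, and both act in 1 repressor complex that keeps KNOX homeobox genes and genes of the lower leaf side silent in the leaf. TCP3 has been described as a direct activator of AS1. WOX1 and WOX3 encode WUSCHEL-related homeobox proteins that act redundantly between the upper and the lower leaf side, where they drive sideways growth of the blade. JAG encodes a zinc-finger protein that promotes blade and petal growth and represses inhibitors of the cell cycle.

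The genes lie at these places in the RefSeq annotation of TAIR10.1, whose nuclear chromosomes were used for coordinates and sequence. AS1 spans chr2:15781232-15783480 on the minus strand, AS2 chr1:24398143-24400989 on the plus strand and WOX1 chr3:6160733-6163453 on the minus strand. WOX3 spans chr2:12262013-12263595 on the plus strand and JAG chr1:25684314-25686195 on the minus strand. The 1000 bases before each annotated start were searched on both strands for GGACCA, the core that TCP4 is known to bind, whose other strand reads TGGTCC. JAG held 3 copies, AS1 held 1, and AS2, WOX1 and WOX3 held none in this window. Of the 27443 windows of the same length before protein-coding genes, 21.9% held at least 1 copy, 3.34% at least 2 and 0.437% (120 windows) at least 3. The stretches with the copies are shown, since no other member held a copy in this window. The single copy of AS1 is common, as 21.9% of all windows held at least 1. Capitals mark GGACCA, and both stretches run 5′ to 3′ on the minus strand, as the genes do. The AS1 stretch is chr2:15784358-15784423, 943 to 878 bases before the start, and the JAG stretch is chr1:25686830-25687093, 898 to 635 bases before it.
AS1: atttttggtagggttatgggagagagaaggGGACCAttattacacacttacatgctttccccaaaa
JAG: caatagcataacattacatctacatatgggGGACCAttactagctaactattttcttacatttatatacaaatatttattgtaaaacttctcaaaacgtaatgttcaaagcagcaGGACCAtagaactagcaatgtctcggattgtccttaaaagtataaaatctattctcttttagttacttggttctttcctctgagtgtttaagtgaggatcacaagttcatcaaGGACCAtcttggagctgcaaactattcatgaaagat

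The first copy in the JAG stretch and the copy in the AS1 stretch each overlap 1 match to GGNCCC, the core of class II TCP sites (GGGNCC when read on the other strand), which 21.1% of the windows of 1000 bases held. GTGGNCCC, a longer form of that core, had no match in any of the 5 windows, and 1.99% of all windows held it. In the 250 bases next to the start none of the 5 genes matched any of the 3 motifs, while 5.90% of all such windows held the TCP4 core, 7.35% the class II core and 0.671% its longer form. These matches describe letters only, and binding was not measured.

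The libraries held between 5932877 and 12018414 reads counted in genes. TCP2, TCP4, TCP3 and TCP10 stood at 8.11% to 24.8% of their Col-0 level in 4KO, and TCP2 and TCP4 at 12.7% to 19.0% in 2KO, so the genotype labels and the targeted genes matched in all groups. TCP3 overlaps a noncoding RNA gene on the opposite strand, and the strand of counting is not given. Markers of leaf photosynthetic tissue were abundant in every library, and among the markers of the shoot apical meristem STM had 1 read, CLV3 had 2 and WUS had 0 in all 18 libraries together. Library 3 of the 2KO margin (16.0%) and library 1 of the Col-0 margin (8.60%) had more reads aligned to several places than the other 16 libraries (3.71% to 4.97%), and results that change without them are given both ways. Levels below are CPM, counts scaled to the library size with TMM (trimmed mean of M values), and means are ± SD of 3 libraries, and fold changes are log2 values ± SE from edgeR's quasi-likelihood test with Benjamini-Hochberg adjustment over the 17763 loci tested, called at an adjusted p under 0.05.

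All 5 genes had their highest level in the 4KO margin. For AS1, AS2 and WOX1 the 3 libraries of the 4KO margin lay above the libraries of every other group, as they did for 6.82% of all loci tested. The libraries of JAG and WOX3 lay so too, but that share cannot be set beside them. JAG was tested because of this group, and WOX3, with 7 reads there, was not tested. AS1, AS2 and WOX1 passed the filter on low counts in all 18 libraries. JAG passed through the 4KO margin, where it reached the cutoff of 1.15 CPM in all 3 libraries against at most 1 library of any other group, so it had to differ to be tested; its comparisons with the 4KO margin are therefore given as reads and ratios, with no p. WOX3 did not pass. Per kilobase of the longest transcript, the levels in the 4KO margin were 30.1 for AS1, 4.15 for AS2, 3.76 for WOX1, 2.01 for JAG and 0.194 for WOX3, in CPM per kilobase. These are bulk samples, in which more cells that express a gene and more RNA per cell cannot be told apart.

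**Figure D1:**
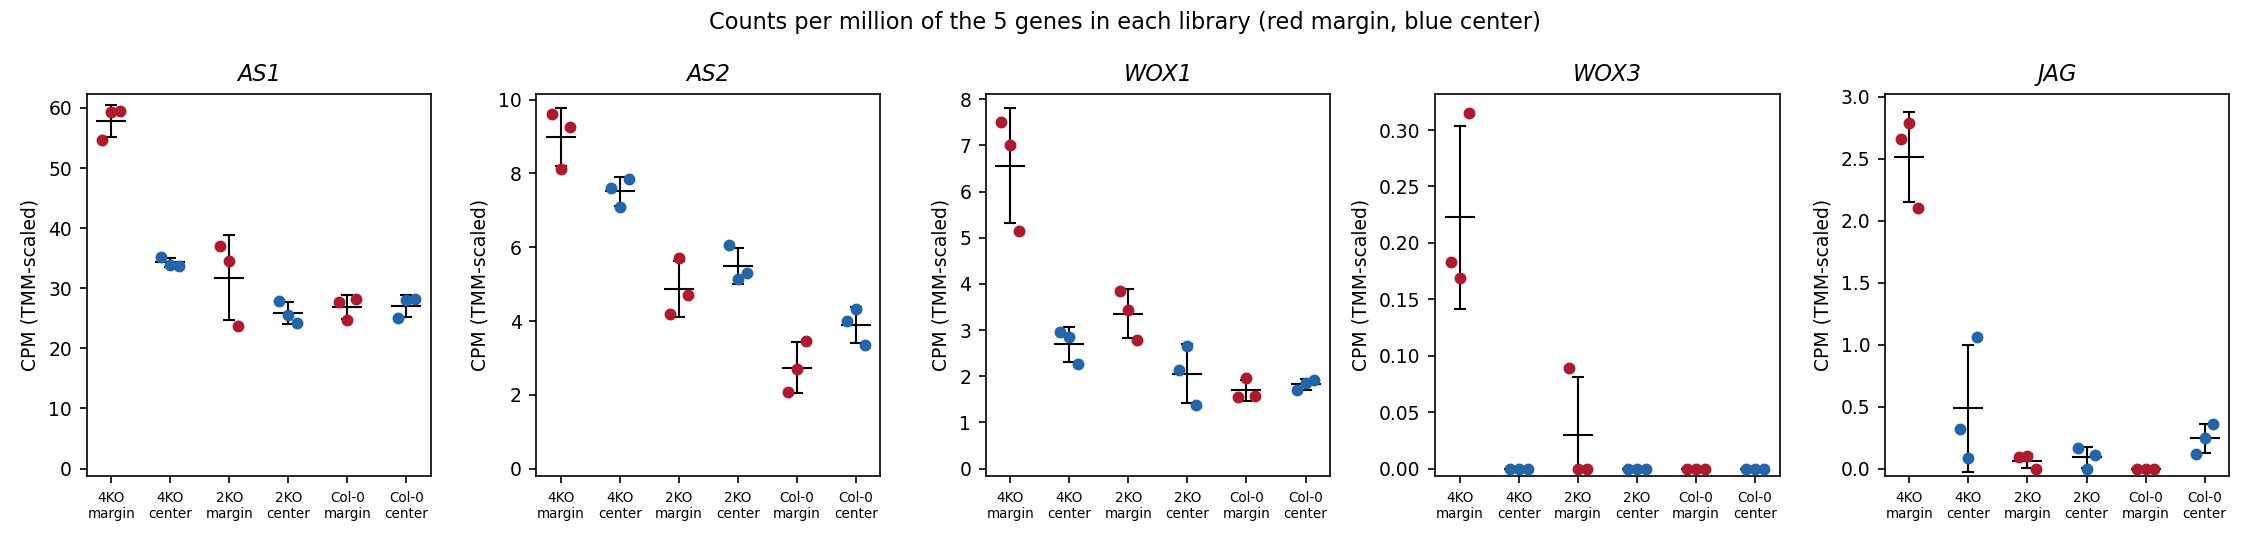
Each point is 1 library, with CPM on the vertical axis, which differs in scale between genes, and the 6 groups on the horizontal axis; the bars are the mean ± SD of 3 libraries. The 4KO margin stands above all other groups for each of the 5 genes, at 54.7 to 59.4 CPM for AS1, 8.11 to 9.62 CPM for AS2 and 5.15 to 7.51 CPM for WOX1.

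AS1, the MYB-domain partner, had 54.7, 59.4 and 59.4 CPM in the 4KO margin, against 27.7, 24.7 and 28.3 CPM in the Col-0 margin. All 3 libraries of the 4KO margin lay above the Col-0 margin with no overlap, as did 27.5% of all loci tested. AS1 was higher in the 4KO margin by 1.11 ± 0.11 (adjusted p = 4.39e-08), and 4.33% of all loci tested had a higher log2 fold change. In the 2KO margin it had 37.1, 34.5 and 23.7 CPM, so libraries 1 and 2 lay above the Col-0 margin and library 3, the one with many reads of several places, below it. The difference of the 2KO from the Col-0 margin was 0.27 ± 0.11 and did not pass (adjusted p = 0.118), while without that library it was 0.42 (adjusted p = 0.00226). The 4KO margin also exceeded the 2KO margin, by 0.83 ± 0.10 (adjusted p = 4.20e-06).

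The center showed a smaller difference for AS1. Its levels were 35.2, 33.9 and 33.8 CPM in the 4KO center, 27.8, 25.5 and 24.2 CPM in the 2KO center, and 25.0, 28.1 and 28.2 CPM in the Col-0 center. The 4KO center lay above both other centers without overlap, as did 22.2% of all loci against the Col-0 center and 12.3% against the 2KO center, and the 2KO and Col-0 centers overlapped. AS1 was higher in the 4KO center than in the Col-0 center by 0.34 ± 0.11 (adjusted p = 0.0226) and than in the 2KO center by 0.41 ± 0.11 (adjusted p = 0.0264). Both calls were close to the threshold: the first was lost without library 1 of the 4KO center (adjusted p = 0.0652) or of the Col-0 center (0.104), and the second without any 1 of 5 libraries (adjusted p = 0.0547 to 0.125). The 2KO and Col-0 centers differed by -0.08 ± 0.12, which did not pass (95% interval -0.32 to 0.17).

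ACT1, an actin gene, lies on the opposite strand and overlaps AS1 by 330 bases, and the strand of counting is not given in the sources used here. ACT1 averaged 33.2 ± 0.339 CPM in the 4KO margin and 31.3 ± 3.25 CPM in the Col-0 margin, a difference of 0.09 ± 0.09 (adjusted p = 0.434). It was not called in any of the 12 comparisons.

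AS2, the LOB-domain partner of AS1, had 9.62, 8.11 and 9.25 CPM in the 4KO margin and 4.20, 5.71 and 4.70 CPM in the 2KO margin, against 2.06, 2.69 and 3.45 CPM in the Col-0 margin. The 3 genotypes did not overlap and followed the number of mutated TCP genes; among all loci, 20.3% lay higher without overlap in the 4KO than in the 2KO margin and 14.4% in the 2KO than in the Col-0 margin. The margin of 4KO exceeded that of Col-0 by 1.70 ± 0.17 (adjusted p = 1.07e-07) and that of 2KO by 0.88 ± 0.15 (adjusted p = 1.57e-04). The 2KO margin exceeded the Col-0 margin by 0.81 ± 0.20 (adjusted p = 0.00764). This last call was lost without library 2 of the 2KO margin (adjusted p = 0.0705), without both libraries rich in reads of several places (0.0568) and with these groups alone in the fit (0.0524).

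In the center the differences of AS2 were smaller, and 1 of 3 passed. AS2 had 7.62, 7.08 and 7.84 CPM in the 4KO center and 6.06, 5.14 and 5.30 CPM in the 2KO center, against 4.00, 4.33 and 3.36 CPM in the Col-0 center. Here too the 3 genotypes did not overlap, and 13.1% of all loci lay higher without overlap in the 2KO than in the Col-0 center. The 4KO center was higher than the Col-0 center by 0.94 ± 0.16 (adjusted p = 1.93e-04), a fold change that 2.38% of all loci tested exceeded. The 4KO against 2KO center (0.45 ± 0.16, adjusted p = 0.0895) and the 2KO against Col-0 center (0.49 ± 0.18, adjusted p = 0.113, unadjusted p = 0.0132) did not pass, and DESeq2 called none of AS1, AS2 and WOX1 in 2KO against Col-0 in the center.

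WOX1 was the homeobox gene with enough reads to test. Its levels were 7.51, 7.01 and 5.15 CPM in the 4KO margin and 3.84, 3.42 and 2.79 CPM in the 2KO margin, against 1.55, 1.95 and 1.58 CPM in the Col-0 margin. No library of 1 genotype overlapped those of another. Among all loci tested, 27.5% lay higher without overlap in the 4KO than in the Col-0 margin. The share was 20.3% for the 4KO over the 2KO margin and 14.4% for the 2KO over the Col-0 margin. WOX1 exceeded its Col-0 margin level by 1.94 ± 0.23 in the 4KO margin (adjusted p = 6.90e-07) and by 1.00 ± 0.26 in the 2KO margin (adjusted p = 0.0122). The difference between the 4KO and 2KO margins was 0.94 ± 0.19 (adjusted p = 8.92e-04). The call in the 2KO margin was lost with DESeq2 (adjusted p = 0.0570), without library 1 of the 2KO margin (0.0750) and without library 3 of the Col-0 margin (0.0509).

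In the center WOX1 had 2.96, 2.85 and 2.26 CPM in 4KO and 2.13, 2.65 and 1.38 CPM in 2KO, against 1.70, 1.86 and 1.92 CPM in Col-0. The 4KO libraries lay above those of Col-0 without overlap, as for 22.2% of all loci tested, and the 2KO libraries overlapped both. The difference of the 4KO from the Col-0 center was 0.57 ± 0.25 and did not pass (adjusted p = 0.0903, 95% interval 0.05 to 1.10). The libraries of WOX1 held 9 to 83 reads each, so its errors were larger than those of AS1, which had 136 to 703.

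WOX3, the partner of WOX1 in blade outgrowth, was near the limit of detection. It had 2, 2 and 3 reads in the 4KO margin and 1, 0 and 0 reads in the 2KO margin, and no read in the other 12 libraries. With the Col-0 margin set at a floor of 3 counts over the group, the 7 reads of the 4KO margin stood 1.52-fold higher. Against the 4KO center they stood 2.12-fold higher by the same floor. The counting error of the 7 reads is not in these values, so neither is a lower bound. Without the filter on low counts, edgeR gave an adjusted p of 0.0783 for 4KO against Col-0 in the margin, and DESeq2 gave none. WOX3 was therefore not called, and both fold values rest on the 7 reads.

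JAG, the zinc-finger gene, had 82 of its 104 reads in the 4KO margin. It had 29, 33 and 20 reads there (2.66, 2.79 and 2.10 CPM), 1, 1 and 0 reads in the 2KO margin and 0 in all 3 libraries of the Col-0 margin. With a floor of 3 counts over the Col-0 margin, JAG was 17.8-fold higher in the 4KO margin, and 10.8-fold without library 2 of the Col-0 margin. The counting error of the 82 reads is not in these values. Against the 2KO margin the ratio of summed levels came to 33.8 (counting interval 9.06 to 284). The 2KO and the Col-0 margin, with 2 reads and 0 reads, were both at or under the floor.

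JAG was low in every center. The 4KO center had 3, 1 and 8 reads and the 2KO center 1, 0 and 1, against 1, 2 and 3 reads in the Col-0 center. All 3 centers overlapped, and 4KO against Col-0 in the center did not pass (adjusted p = 0.492). NUB, the closest relative of JAG, did not pass the filter: it had 13 reads in the 4KO margin, 1 in the 2KO margin and 0 in the Col-0 margin. That is 2.82-fold higher in the 4KO than in the Col-0 margin, with the latter at the floor of 3 counts.

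AS1, AS2 and WOX1 were all called higher in the 4KO than in the Col-0 margin, as were 22.1% of all loci tested; 43.9% were called in either direction. All 3 were also called higher in the 4KO than in the 2KO margin (12.2% of loci higher, 25.8% in either direction). In the 2KO against the Col-0 margin AS2 and WOX1 were called (6.33% higher, 14.1% in either direction). In the center AS1 and AS2 were called in 4KO against Col-0 (15.2% higher, 31.1% in either direction), AS1 alone in 4KO against 2KO (3.56% and 7.93%) and none in 2KO against Col-0 (3.58% and 6.15%). The comparisons within a piece share libraries with each other and are not independent.

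**Figure D2:**
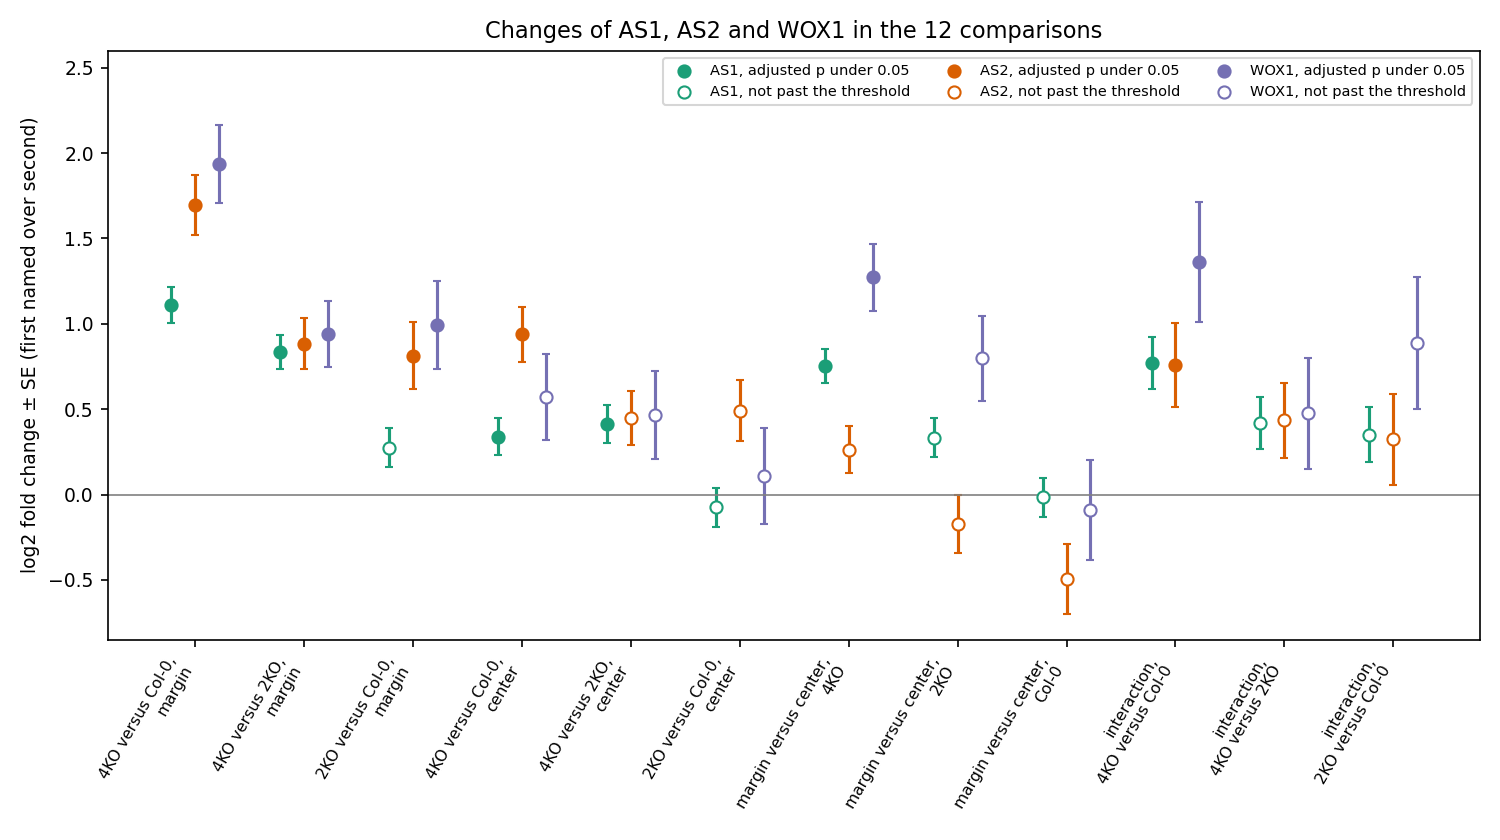
Log2 fold changes ± SE of AS1, AS2 and WOX1, which passed the count filter in all libraries, in the 12 comparisons; filled points passed an adjusted p of 0.05 and open points did not. In the margin the values of 4KO over Col-0 were 1.11, 1.70 and 1.94, and in the margin against center of Col-0 no point was filled.

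The second question was whether the genes differed between margin and center within a genotype. In 4KO AS1 was higher in the margin by 0.75 ± 0.10 (adjusted p = 1.07e-05), WOX1 by 1.27 ± 0.19 (adjusted p = 5.44e-05), and for both genes the 3 margin libraries lay above the 3 center libraries, as for 21.1% of all loci. JAG had 82 reads in the 4KO margin and 12 in the 4KO center, a ratio of summed levels of 6.20 (counting interval 3.36 to 12.5). Of those 12 reads 8 were in library 3, and the ratio was 13.8 without library 3 of the 4KO center and 3.92 without its library 2. AS2 did not pass in 4KO (0.26 ± 0.14, adjusted p = 0.176), although its margin and center libraries did not overlap. Of all loci tested, 12.1% were called higher in the 4KO margin than in its center and 25.6% in either direction.

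In Col-0 no member was called between margin and center, where 5.3% of all loci were higher in the margin and 11.4% called in either direction. AS1 differed by -0.02 ± 0.12 (95% interval -0.26 to 0.23) and WOX1 by -0.09 ± 0.29 (-0.70 to 0.52), and their libraries overlapped. AS2 had the lower level in the Col-0 margin by -0.49 ± 0.21 (adjusted p = 0.168, unadjusted p = 0.0373). JAG had 0 reads in the margin of Col-0 and 6 in its center (adjusted p = 0.119). At an unadjusted p under 0.05 both AS2 and JAG would have counted, each lower in the margin, and DESeq2 called neither.

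In 2KO AS1 differed between margin and center by 0.33 ± 0.11 (adjusted p = 0.0820) and WOX1 by 0.80 ± 0.25 (adjusted p = 0.0569), and neither passed, although the unadjusted p was 0.00817 for AS1 and 0.00455 for WOX1. With genotype and library number as a block, called leaf pool here, AS1 passed, at 0.29 ± 0.09 (adjusted p = 0.0138). Without library 3 of the 2KO margin AS1 stood at 0.48 (adjusted p = 0.00119). WOX1 passed without library 2 of the 2KO center, at 1.02 (adjusted p = 0.0396). AS2 differed by -0.17 ± 0.17 (adjusted p = 0.651). Among all loci 2.47% were called higher in the 2KO margin than in its center and 7.51% in either direction.

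The difference between genotypes in these margin and center differences was tested as an interaction. The margin minus center difference of AS1 in 4KO exceeded that in Col-0 by 0.77 ± 0.15 (adjusted p = 0.00150), and that of WOX1 by 1.36 ± 0.35 (adjusted p = 0.0105). AS2 also passed, at 0.76 ± 0.25 (adjusted p = 0.0393). For AS2 neither genotype alone was called between its pieces, and the interaction was lost in 12 of 18 other fits, among them DESeq2 (adjusted p = 0.168), no filter on low counts (0.0609) and the fit without library 1 of the Col-0 margin (0.116). JAG is left out here, since it was tested because of the 4KO margin. Of all loci tested, 7.96% were called higher in this interaction and 17.2% in either direction.

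The interaction of 2KO against Col-0 called none of the members (0.332% of all loci higher, 0.439% in either direction), and so did 4KO against 2KO (1.43% and 2.9%). In the 4KO against 2KO interaction AS1 stood at 0.42 ± 0.15 (adjusted p = 0.157), and in the fit blocked by leaf pool it passed at 0.46 ± 0.11 (adjusted p = 0.00285). At an unadjusted p under 0.05, AS1 and WOX1 would have counted in the interaction of 2KO against Col-0, at 0.35 ± 0.16 and 0.89 ± 0.39, and AS1 in that of 4KO against 2KO. DESeq2 did not call AS1 in either interaction, and for AS2, WOX1 and JAG it gave no adjusted p in that of 2KO against Col-0.

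**Figure D3:**
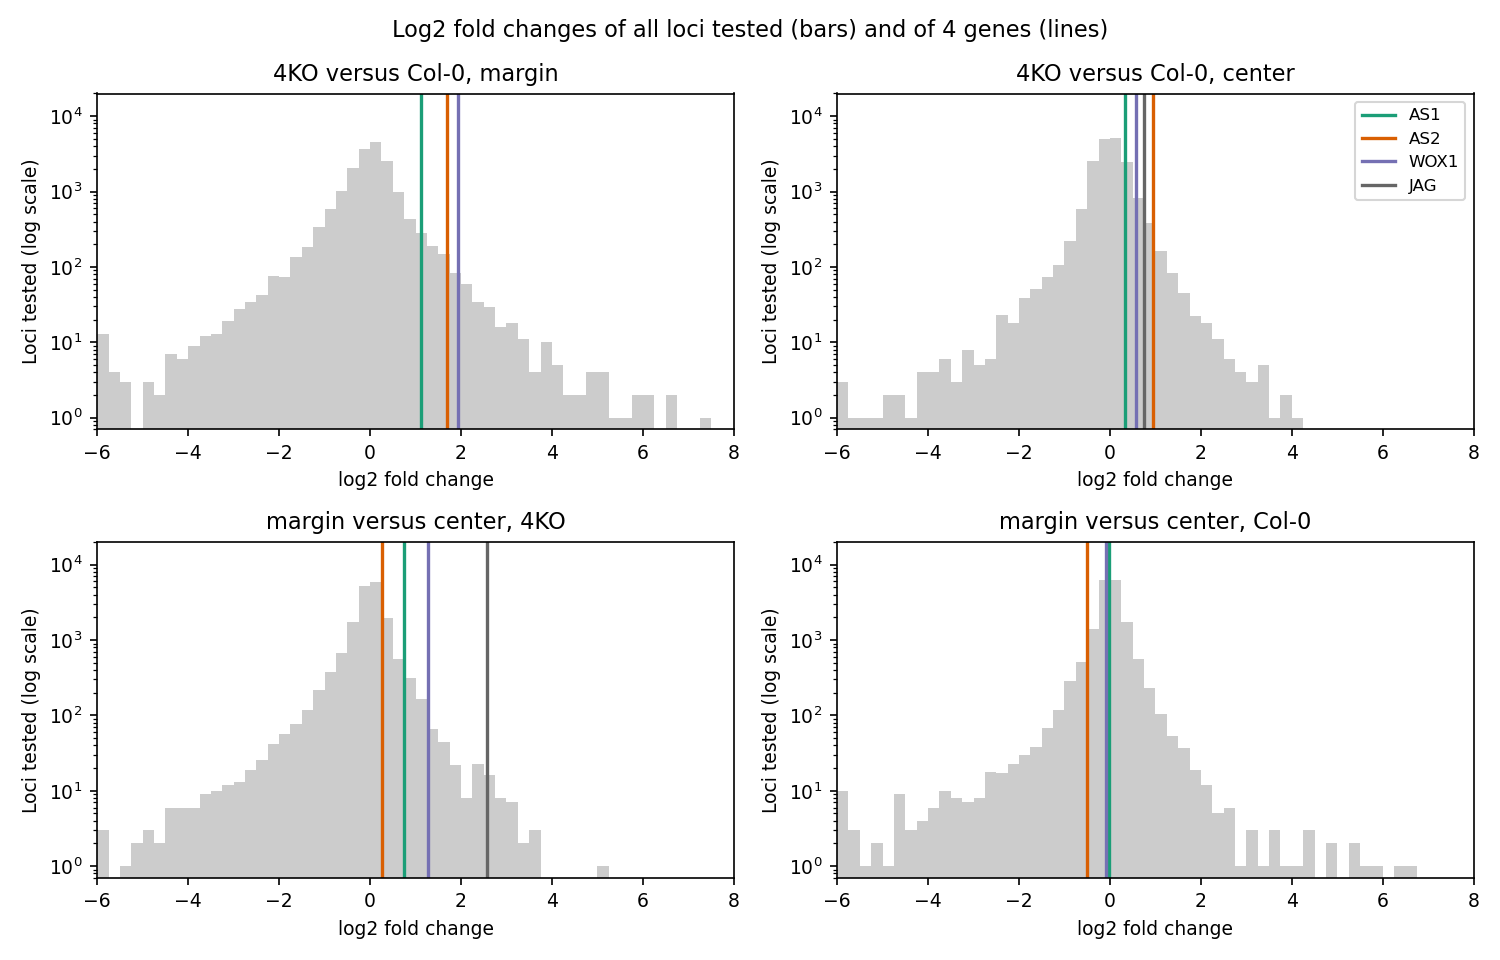
Grey bars give the number of all 17763 loci tested by log2 fold change, on a log scale, with values beyond the ends of the axis counted in the end bars; lines mark AS1, AS2, WOX1 and JAG. JAG is left out of the panels in which 1 group had 0 reads, since its fitted value there depends on the prior count. In the 4KO against Col-0 margin AS1, AS2 and WOX1 lie at 1.11, 1.70 and 1.94, in the upper tail, and in the margin against center of Col-0 AS1 and WOX1 lie near 0.

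Across the 18 libraries AS1 and WOX1 correlated at r = 0.893, AS1 and JAG at 0.885, and WOX1 and JAG at 0.771 (Pearson, on log2 of CPM + 0.5). AS2 correlated less with the others, at 0.703 with AS1, 0.706 with WOX1 and 0.718 with JAG. The points share their libraries and their 6 groups, so these values mainly describe the group means. JAG was tested because of the 4KO margin, where AS1, AS2 and WOX1 were also highest, so the filter partly sets its r with them. Among loci with a symbol, the 3 most like AS1 were EIR1, an auxin efflux carrier (r = 0.966), AGO10, an Argonaute protein (0.956), and the transporter ABCG8 (0.955). EIR1 had low levels, at 1.78 CPM in the 4KO margin and 0.0886 CPM in the Col-0 margin. These means lie on either side of the cutoff of 1.15 CPM, so the filter may partly set the r of EIR1 with AS1. For AS2 the 3 most like were E13L3 (0.955), the receptor kinase ER (0.949) and the callose synthase GSL8 (0.948).

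The genes most like WOX1 were CYP86A4 (r = 0.942) and LACS1 (0.920), enzymes of cutin and wax synthesis, and GL2 (0.929), a homeobox gene of the epidermis and of trichomes. Those most like JAG were MYB0, also named GL1, which starts trichomes (0.954), BAG7 (0.944) and WOX5, a homeobox gene known from the root stem cell niche (0.926). JAG, GL1 and WOX5 each reached the cutoff in all libraries of the 4KO margin alone. Being high there is how they came to be tested, so the filter partly sets the r of GL1 and WOX5 with JAG. GL1 averaged 4.21 CPM in the 4KO margin and 0.0407 CPM in the Col-0 margin, and CYP86A4 averaged 41.8 CPM in the 4KO margin and 5.11 CPM in the Col-0 margin. The level of GL2 is uncertain, since the strand of counting is not given.

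Known targets of the AS1-AS2 complex did not move in 1 direction. Of 7 such genes 5 were tested, and in the 4KO against the Col-0 margin 2 were higher and 2 lower, with a median of 0.11 beside 0.03 for all loci tested. Across all loci 43.9% were called there in either direction. YAB5, a YABBY gene, was higher (16.8 ± 1.27 CPM in the 4KO margin and 9.73 ± 2.07 CPM in the Col-0 margin, 0.78 ± 0.13, adjusted p = 3.81e-05). KNAT6, a KNOX gene, was the other gene called higher, from 33 reads in the 4KO margin against 5 in the Col-0 margin. The ratio was 4.29, with a counting interval of 1.66 to 14.1. KNAT6 passed the filter with 4 libraries at the cutoff of 1.15 CPM, while no Col-0 library exceeded 0.961 CPM. It was thus tested because of its level in the mutants, and no p is given. Its call is not counted as a result, which leaves YAB5 as the gene called higher. KAN2 (-0.74 ± 0.18, adjusted p = 0.00217) and ARF3, also named ETT (-0.27 ± 0.10, adjusted p = 0.0358), genes of the lower leaf side, were lower in the 4KO margin.

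The KNOX genes KNAT1 and KNAT2, which the complex is best known to repress, had too few reads to be tested. KNAT1 had 9 reads in the 4KO margin, 1 in the 4KO center and 0 in the other 12 libraries. That is 1.95-fold higher in the 4KO than in the Col-0 margin, with the latter at the floor of 3 counts. KNAT2 had 2 reads in the 4KO margin and 3 in the Col-0 margin. In the 4KO center YAB5 (0.81 ± 0.10, adjusted p = 6.61e-06) and ARF4 (0.47 ± 0.07, adjusted p = 3.99e-05) were higher than in the Col-0 center and none of the 5 was lower, with a median of 0.46 beside 0.01 for all loci.

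Between margin and center, YAB5 had the lower level in the margin in 4KO (-0.996 ± 0.10, adjusted p = 3.40e-07) and in Col-0 (-0.96 ± 0.13, adjusted p = 3.10e-05). ARF4 was lower in the 4KO margin (-0.56 ± 0.07, adjusted p = 3.47e-06), and KAN2 was higher in the Col-0 margin (0.65 ± 0.19, adjusted p = 0.0271). The list thus had 0 higher and 2 lower in 4KO, and 1 higher and 1 lower in Col-0, of 5 tested. Across all loci 25.6% were called in either direction in 4KO and 11.4% in Col-0. ARF4 alone was called in the interaction of 4KO against Col-0, at -0.35 ± 0.10 (adjusted p = 0.0214).

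Of 8 partners and upstream genes of AS1 and AS2, 7 were tested. In the 4KO against the Col-0 margin 4 were higher and none lower (median 0.20), beside 22.1% of all loci higher and 43.9% in either direction. The leading genes of the list were TPL, a corepressor (0.49 ± 0.07, adjusted p = 8.08e-06), and YAB3 (0.49 ± 0.08, adjusted p = 3.97e-05). In the center 4 were higher as well (median 0.19), beside 15.2% of all loci. TPL (0.39 ± 0.07, adjusted p = 2.62e-04) and YAB1 (0.27 ± 0.07, adjusted p = 0.00551) led there. BOP2, a BTB-ankyrin protein gene of the leaf base known to activate AS2, was lower in margins than in centers of 4KO (-1.92 ± 0.23, adjusted p = 3.71e-06) and of Col-0 (-1.005 ± 0.27, adjusted p = 0.0183). YAB3 (0.52 ± 0.08, adjusted p = 4.38e-05) and LUG (0.18 ± 0.06, adjusted p = 0.0393) were higher in the 4KO margin than in its center, and YAB3 was the list's call in the interaction of 4KO against Col-0 (0.43 ± 0.12, adjusted p = 0.0140). BOP2 and TPL overlap genes on the opposite strand.

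Of 13 other WOX genes 3 were tested and of 10 LBD genes related to AS2 only LBD4 and LBD11. WOX5 had 13, 17 and 16 reads in the 4KO margin and none in the Col-0 margin. At the floor of 3 counts it was 9.97-fold higher in the 4KO margin, or 6.07-fold without library 2 of the Col-0 margin. Like JAG it was tested because of the 4KO margin, so no p is given. It had 8 reads in the 4KO center, a ratio of 5.21 between margin and center (counting interval 2.44 to 12.8), which was 15.5 without library 3 of the 4KO center and 3.02 without its library 2. WOX4, a gene of the vascular cambium, was higher in the 4KO center than in the Col-0 center (0.93 ± 0.27, adjusted p = 0.0116), and WOX13 was lower there (-0.32 ± 0.12, adjusted p = 0.0438). WOX13 overlaps a gene on the opposite strand. LBD4 (0.72 ± 0.23, adjusted p = 0.0131) and LBD11 (0.69 ± 0.26, adjusted p = 0.0365) were higher in the 4KO than in the Col-0 margin, neither was called in the center, and LBD4 was higher in the 4KO margin than in its center (0.57 ± 0.21, adjusted p = 0.0481).

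Of 8 genes of blade growth beside JAG 5 were tested, and in the 4KO margin 4 were higher and none lower than in the Col-0 margin, with a median of 0.68. Across all loci tested, 22.1% were called higher there and 43.9% in either direction. ANT, an AP2 factor that prolongs cell proliferation, had 48.3, 50.6 and 54.8 CPM in the 4KO margin, against 12.4, 13.7 and 16.4 CPM in the Col-0 margin (1.85 ± 0.11, adjusted p = 3.75e-11). AN3, a coactivator of growth-regulating factors, had 4.03, 6.34 and 6.73 CPM in the 4KO margin, against 1.72, 1.47 and 1.44 CPM in the Col-0 margin (1.89 ± 0.26, adjusted p = 4.88e-06). For both genes the 4KO margin lay above the Col-0 margin without overlap, as for 27.5% of all loci tested. KRP2 and KRP4, cell cycle inhibitors that JAG is known to repress, were not called lower in the 4KO margin: KRP4 was higher (0.25 ± 0.10, adjusted p = 0.0449), and KRP2 was not called. KRP4 overlaps CB5-B on the opposite strand. In the center ANT (0.62 ± 0.10, adjusted p = 1.40e-04) and KRP2 (0.45 ± 0.16, adjusted p = 0.0325) were higher in 4KO than in Col-0.

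ANT and AN3 also changed sides between the genotypes. ANT was higher in the margin than in the center of 4KO (0.83 ± 0.09, adjusted p = 1.12e-06) and lower in the margin of Col-0 (-0.40 ± 0.12, adjusted p = 0.0357), and its interaction was 1.23 ± 0.15 (adjusted p = 1.11e-05). AN3 was higher in the 4KO margin than in the 4KO center (1.10 ± 0.22, adjusted p = 7.80e-04) and lower in the Col-0 margin than in the Col-0 center (-0.93 ± 0.30, adjusted p = 0.0467), and its interaction of 4KO against Col-0 was 2.02 ± 0.37 (adjusted p = 6.42e-04). PTL, a trihelix gene that acts upstream of WOX3 in the flower, passed the filter through the margins alone, so it had to be higher there to be tested. Its margin exceeded its center by 1.85 ± 0.27 in 4KO and by 1.57 ± 0.35 in Col-0, and no p is given. Of the 5 genes, 4 were called higher in the margin of 4KO, beside 12.1% of all loci tested. PTL is 1 of these 4, and its call is not counted as a result, since the filter required its higher level. In Col-0 2 were called lower, and the 1 called higher was PTL, for which the same holds. Among all loci 11.4% were called in either direction between the Col-0 pieces.

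**Figure D4:**
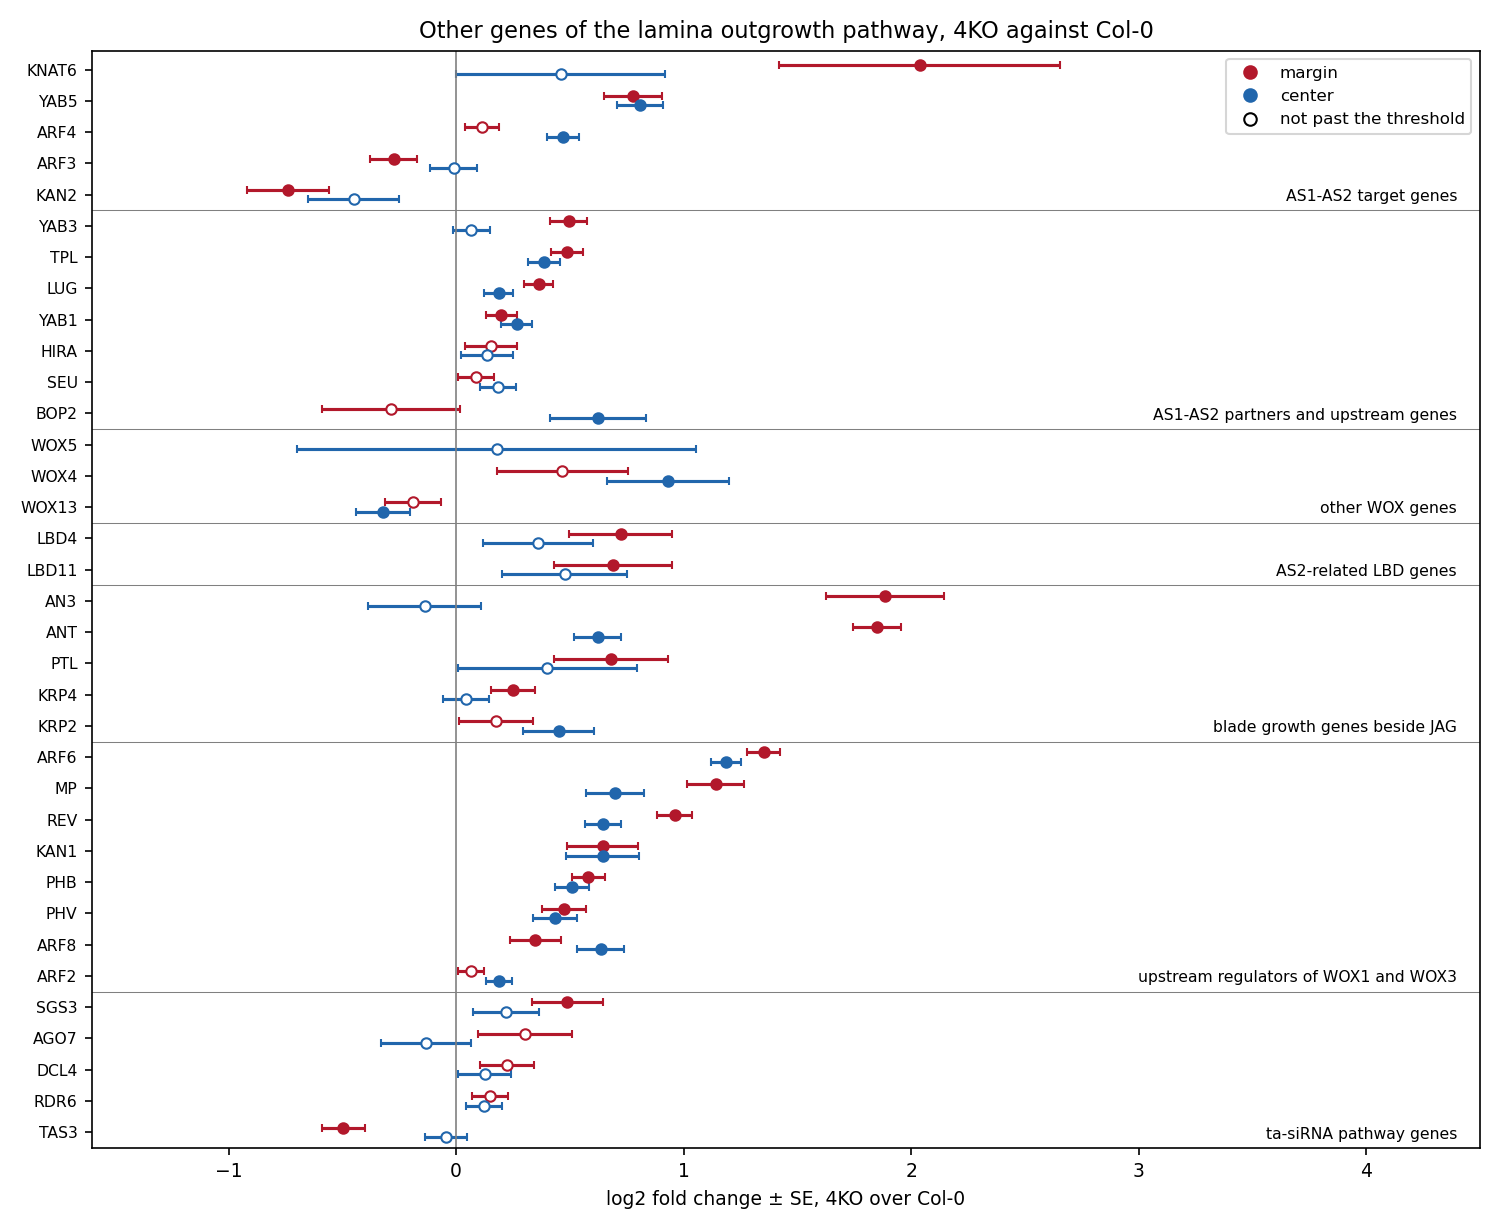
Log2 fold changes ± SE of 4KO over Col-0 for the tested genes of 7 lists, in the margin and in the center; filled points passed an adjusted p of 0.05 and open points did not. WOX5 is drawn for the center only, since it had 0 reads in the Col-0 margin. All points of the upstream regulators of WOX1 and WOX3 lie above 0, while ANT and AN3 stand at 1.85 and 1.89 in the margin.

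Of the 8 regulators known to act upstream of WOX1 and WOX3 all were tested. The list does not separate activators from repressors, and its part in the levels of WOX1 and WOX3 was not tested. In the 4KO against the Col-0 margin 7 were higher and none lower (median 0.61), beside 22.1% of all loci higher and 43.9% in either direction. In the center 8 were higher (median 0.64), beside 15.2% of all loci higher and 31.1% in either direction. ARF6, an auxin response factor, was higher by 1.35 ± 0.07 in the margin (adjusted p = 1.44e-11) and by 1.18 ± 0.07 in the center (adjusted p = 1.31e-10). REV, a homeobox gene of the upper leaf side, was higher by 0.96 ± 0.08 in the margin (adjusted p = 4.40e-09) and by 0.65 ± 0.08 in the center (adjusted p = 3.73e-06). None of the 8 was called in the interaction of 4KO against Col-0, which called WOX1 itself and 17.2% of all loci tested.

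Within 4KO these regulators split between the pieces, with 2 higher and 2 lower in the margin, where 25.6% of all loci were called in either direction. MP, an activating auxin response factor (0.50 ± 0.11, adjusted p = 0.00215), and REV (0.29 ± 0.07, adjusted p = 0.00543) were higher in the margin than in the center. ARF6 (-0.67 ± 0.06, adjusted p = 1.70e-07) and ARF8 (-0.69 ± 0.10, adjusted p = 3.43e-05) were lower there, as they were in Col-0 (ARF6 by -0.83 ± 0.07, adjusted p = 1.82e-07, and ARF8 by -0.40 ± 0.11, adjusted p = 0.0251). REV, MP and KAN1 overlap genes on the opposite strand. Of the 5 genes of the trans-acting small RNA pathway that restrains ARF3 and ARF4, SGS3 was higher (0.49 ± 0.15, adjusted p = 0.0141) and TAS3 lower (-0.50 ± 0.09, adjusted p = 2.21e-04) in the 4KO against the Col-0 margin, and none was called in the center. Within 4KO the margin also had less TAS3 than the center (-0.42 ± 0.09, adjusted p = 0.00198), and TAS3 was called in the interaction (-0.45 ± 0.13, adjusted p = 0.0212).

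Markers of other cell types moved along with the 5 genes in the 4KO margin. The 6 markers of dividing cells summed to 227 to 256 CPM in the 4KO margin, 121 to 140 CPM in the 2KO margin and 78.0 to 83.7 CPM in the Col-0 margin. All 6 were called higher in the 4KO than in the Col-0 margin, as were 22.1% of all loci tested. They were also all called higher in the 4KO margin than in the 4KO center, as were 12.1% of all loci. In the center they summed to 109 to 130 CPM in 4KO, 115 to 156 CPM in 2KO and 135 to 147 CPM in Col-0, and in 4KO against Col-0 none of the 6 was called higher and KN was called lower (-0.37 ± 0.13, adjusted p = 0.0350). KN, CDKB1 and CDKB2 overlap genes on the opposite strand. In Col-0 the margin had less of all 6 than the center, each called; there AS2 differed by -0.49, WOX1 by -0.09 and AS1 by -0.02, none of them called, and JAG had 0 reads in the margin and 6 in the center.

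The 4 markers of the epidermis summed to 1312 to 1385 CPM in the 4KO margin and 759 to 762 CPM in the Col-0 margin, with 3 of 4 called higher. The 3 markers of trichomes summed to 43.2 to 50.1 CPM in the 4KO margin and 15.7 to 17.1 CPM in the Col-0 margin. GL2 was called higher and TRY lower. GL1 passed the filter through the 4KO margin alone, so it had to be higher there to be tested, and its call is not counted. The 5 markers of photosynthetic tissue summed to 44883 to 51279 CPM in the 4KO margin and 84604 to 92012 CPM in the Col-0 margin, with all 5 called lower. Phloem markers summed to 51.2 to 59.0 CPM in the 4KO margin and 257 to 268 CPM in the Col-0 margin, with 4 of 4 called lower. Xylem markers summed to 63.2 to 67.0 CPM in the 4KO margin and 75.7 to 90.1 CPM in the Col-0 margin, with 3 of 4 called lower. Guard cell markers summed to 47.5 to 54.0 CPM in the 4KO margin and 104 to 137 CPM in the Col-0 margin, with 3 of 3 called lower. Across all loci tested, 22.1% were called higher in the 4KO than in the Col-0 margin and 43.9% in either direction.

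Meristem markers summed to 61.3 to 68.8 CPM in the 4KO margin and 62.8 to 67.0 CPM in the Col-0 margin, nearly all of it from CLV1, which did not pass (0.02, adjusted p = 0.879). STM, CLV3 and WUS had 1, 0 and 0 reads in the 4KO margin. The part of these marker groups in the levels of the 5 genes was not tested.

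**Figure D5:**
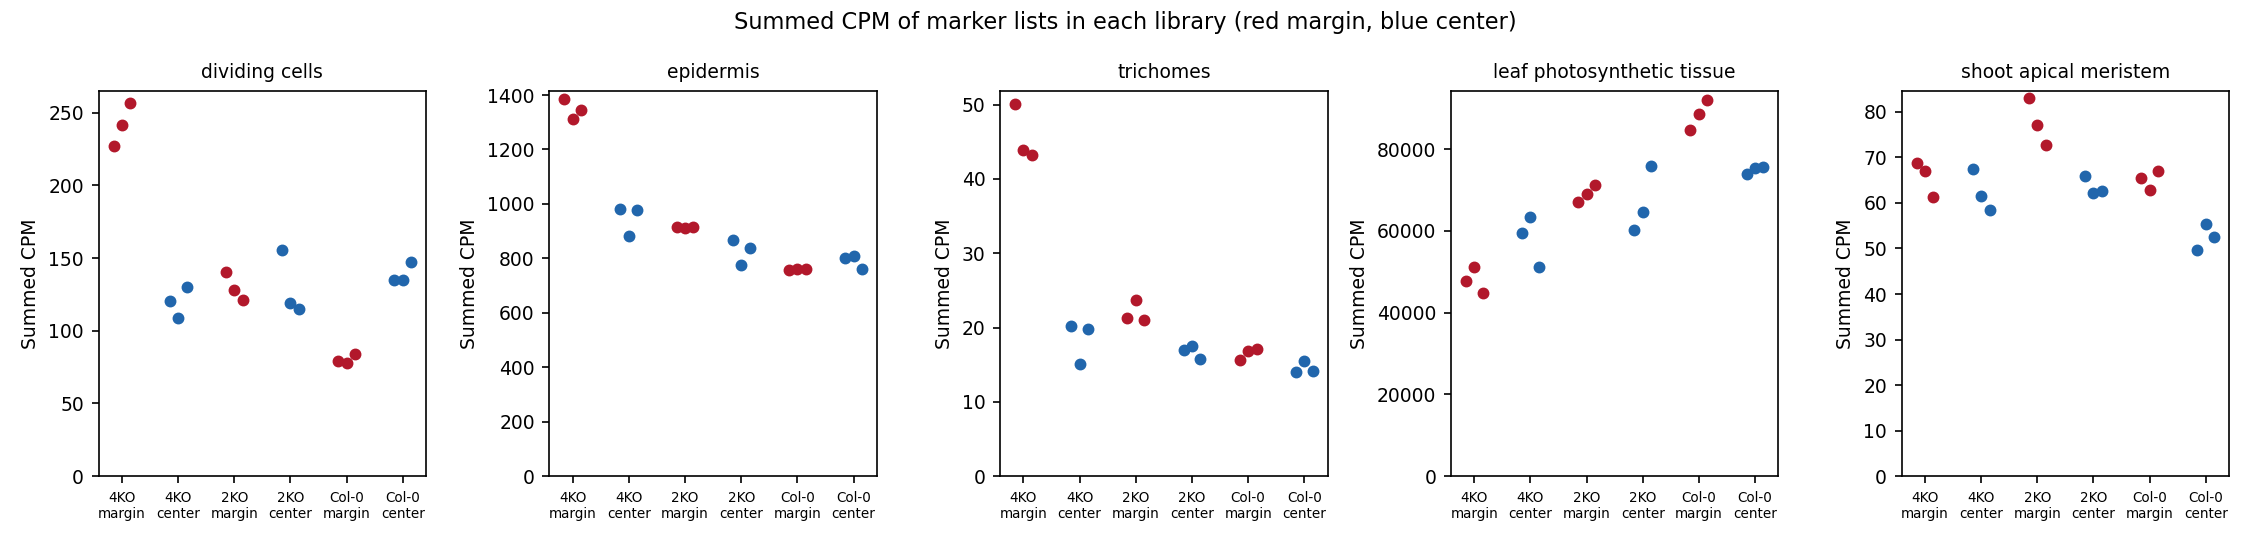
Summed CPM of 5 marker lists in each of the 18 libraries, by group. Dividing-cell, epidermis and trichome markers are highest in the 4KO margin, at 227 to 256, 1312 to 1385 and 43.2 to 50.1 CPM, and photosynthetic markers are lowest there, at 44883 to 51279 CPM.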

How the data were processed

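RNA of 18 leaf libraries was sequenced with an Illumina TruSeq RNA kit, per the labels' protocols. The authors deposited raw read counts per locus, and edgeR 3.8.6, HTSeq 0.7.2, TopHat2 2.0.13 and the TAIR10 build are listed in the submitters' processing notes. Their roles, options and strand setting and the annotation release were not given in the sources used here. Counts of 33602 loci were used, without 5 rows that sum up reads outside genes (3.71% to 16.0% of reads aligned to several places, 1.38% to 1.57% ambiguous, 0.497% to 1.15% without a feature).

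Counts were tested with edgeR 4.0.16 (R 4.3.3): TMM scaling, filterByExpr by group with a minimum count of 10, leaving 17763 loci, 1 mean per group over all 18 libraries, the 2-sided quasi-likelihood F test and Benjamini-Hochberg adjustment over all loci. Intervals of a log2 fold change are 95% and rest on the same fit. Counting intervals are exact and cover counting error only. Floors take 3 counts over a group without reads, and a fold over a floor leaves out the counting error of the other group. The labels do not say that libraries of a group are separate cultures, so p-values measure the spread between these samples. The procedure was tested on simulated data.

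The members, the lists of other genes and the markers were chosen with earlier results of these data known. All 5 members were named throughout; each list gives its counts and at most the 2 called genes with the lowest adjusted p in each direction in 5 comparisons, with KNAT1, KNAT2 and NUB always given. KRP2 and KRP4 in the margin, LUG, YAB1 and the genes of marker lists with values were named after their values were seen. For likeness, the 3 loci with the highest r were named.

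After group means were removed over the 5000 most variable loci, the 9 pairs of a margin and a center library that share genotype and number had correlations of 0.224 to 0.442, and pairs with other numbers -0.282 to 0.0526, so the leaf pool was also used as a block. It lowered the biological coefficient of variation to 3.48%, against 7.68% without the block. Sequences and gene positions came from RefSeq's TAIR10.1.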

Additional observations from a re-analysis of the deposited data

Results flagged for a closer look

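In AS1, AS2 and WOX1 the margin minus center difference of 4KO differed from that of Col-0. This difference of differences was 0.77 for AS1, 0.76 for AS2 and 1.36 for WOX1 on the log2 scale, each larger in 4KO. JAG is not among them, since it was tested because of its level in the 4KO margin. AS1 and WOX1 passed in all 18 other fits of this interaction, and AS2 in 6 of 18.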

How the results depend on the processing

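The calls of AS1, AS2 and WOX1 in the 4KO margin against the Col-0 and the 2KO margin, and those of AS1 and WOX1 between margin and center of 4KO, passed in every alternative tried. Of 472 values of AS1, AS2 and WOX1 under an alternative, 440 kept their side of the threshold, 25 lost the call and 7 gained it, and no called value changed sign.

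Leaf pool as a block raised the called members to 1, against 0 without it, in 2KO margin against center and in the interaction of 4KO against 2KO (AS1 in both). It changed no other call of a member. The count without both libraries rich in reads of several places was also 1 in 2KO margin against center. DESeq2 1.42.0 and a fit of the compared groups alone each called 1 member, against 2, in the 2KO against the Col-0 margin. Leaving out 1 library gave 0 to 1 members in 2KO margin against center, 1 to 3 in 2KO against Col-0 margin, 1 to 2 in 4KO against Col-0 center and 0 to 1 in 4KO against 2KO center. The cause was not tested.

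Across all loci, the block gave 3836 calls (against 2030) between margin and center of Col-0, 3041 (1334) in 2KO, and 1347 (78), 4996 (3047) and 2009 (515) in the interactions of 2KO against Col-0, 4KO against Col-0 and 4KO against 2KO. With the compared groups alone there were 764 (1334) in 2KO margin against center, 674 (1093) and 750 (1409) in 2KO against Col-0 and 4KO against 2KO in the center, and 39 (78) in the interaction of 2KO against Col-0, which had 175 with no filter and 131 with DESeq2. Replicate numbers across genotypes did not pair (r = -0.273 to 0.189 for 18 pairs of the same number); that block gave 589 and 736 calls in the same centers. Leaving out 1 library gave as few as 842 calls in 2KO margin against center and 1519 (against 2513) in the 2KO against the Col-0 margin (both without 2KO margin 1), 462 in the 2KO against the Col-0 center (without Col-0 center 1) and 841 in the 4KO against the 2KO center (without 4KO center 3). It gave 17 (without 2KO center 2) to 208 (without 2KO center 1) in the interaction of 2KO against Col-0 and as few as 269 (without 4KO center 2) in that of 4KO against 2KO.

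WOX3, with 8 reads in all, and JAG, with 12 or fewer reads in each group but the 4KO margin, are limited by depth.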
